A study of Mus musculus with 4 samples.

Results

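Irx1, Irx2, Irx3, Irx5, Irx6, Six2, Eya1 and Dgkk were followed across the cell populations of the fetal mouse penis, as genes that have been linked to hypospadias or belong to the same families. They were taken by name, with earlier results of these data known, and all 8 were present among the 32287 features counted in each library. The penis was collected from male embryos at E16.5, while the urethra is closing. Control embryos, titled DTA- in the labels and given there the genotype WT, had no Cre and carried a diphtheria toxin A allele that stays silent until a loxP-flanked stop is removed. DTA+ embryos carried the same allele together with Nr5a1-Cre, so that cells which express Nr5a1, or descend from cells that did, are killed. Nr5a1-Cre is also active in the testis and adrenal gland, so the model removes steroid-producing cells as well as cells of the external genitalia. The methods of the study give the DTA+ cross a tdTomato reporter allele in addition. Each group held 2 libraries, and values for single libraries are listed throughout in the order DTA- replicate 1, DTA- replicate 2, DTA+ replicate 1, DTA+ replicate 2.

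The Iroquois (Irx) genes encode homeodomain transcription factors that pattern limb, heart and skin appendages and lie in the genome in groups that share long-range enhancers. In the mouse genome build GRCm38, Irx1 (chr13:71957921-71963723, minus strand) and Irx2 (chr13:72628820-72634198, plus strand) were separated by 665 kb. Irx3 (chr8:91798525-91802067, minus strand), Irx5 (chr8:92357625-92376286, plus strand) and Irx6 (chr8:92674288-92680956, plus strand) formed the other group, with gaps of 556 kb and 298 kb. Six2 (chr17:85684277-85688274, minus strand) encodes a homeodomain factor known for keeping nephron progenitors undifferentiated. Eya1 (chr1:14168954-14310235, minus strand) encodes a protein phosphatase that binds Six2 and its relatives and turns on their targets, and its loss disturbs ear, kidney and genitourinary development. Dgkk (chrX:6779306-6948363, plus strand) encodes a diacylglycerol kinase, an enzyme that ends diacylglycerol signalling by making phosphatidic acid. Human IRX5, IRX6, EYA1 and DGKK lie at loci associated with hypospadias, a urethral opening on the underside of the penis.

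The 4 libraries held 12580, 11607, 11510 and 11343 cell barcodes with 50779551 to 73577028 unique molecular identifiers (UMIs) each, and 31132 of 47040 cells passed the filters on depth, mitochondrial and haemoglobin reads. Their median depth was 4700, 4077, 3551 and 3560 UMIs. Reads of tdTomato were found in the DTA+ libraries only (0, 0, 3579 and 3140 UMIs), whereas Nr5a1 itself gave 1 or 2 UMIs a library and could not check the labels. Any pair of libraries shared between 31 and 48 cell barcodes. The cells formed 27 clusters, of which 21 carried enough of the marker genes of a known population to be named and 6 did not, and names with the ending "-like" stand for such a resemblance. The unnamed clusters are called by number with their leading genes. Smooth muscle-like cells and clusters 10, 12 and 17 had fewer than 20 cells in 1 or more libraries and were not tested, and the red blood cell-like cluster held Col1a1 UMIs in 88.5 to 95.1% of its cells, so mesenchymal RNA was also present. The general prepuce-like cells were drawn from different clusters in the genotypes, since cluster 10 (Ly6a, Igfbp5, Cthrc1) made up 53.8, 77.4, 7.86 and 1.95% of them. Levels are given as CPM, the gene's counts per 1000000 of the UMIs summed over a population within a library, with those sums scaled by TMM factors (edgeR's library size correction) in populations that were tested and unscaled elsewhere. The study's methods call the replicates biological, but neither they nor the labels say how animals or litters were divided among the libraries, so p-values measure the spread between these libraries, which may be technical.

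Genotypes were compared with edgeR's quasi-likelihood test and Benjamini-Hochberg adjustment over all genes tested in a population. Summed over all kept cells, none of the 8 genes differed between the genotypes at an adjusted p under 0.05, nor at an unadjusted one, against 0.488% of all 15977 genes tested that passed the adjusted threshold. DESeq2 called none of them either. The level of Eya1 was 61.4, 49.9, 38 and 49.6 CPM (log2 fold change -0.34, SE 0.17, adjusted p = 0.403), and the lower control stood just above the higher DTA+ library. Irx5 stood at 100.2, 79.8, 92.4 and 89.4 CPM (log2 fold change 0.01, adjusted p = 0.971), and Irx3 at 20.001, 15.6, 19.3 and 15.9 CPM (log2 fold change -0.02, adjusted p = 0.974). Both genes overlapped between the groups. In sums over all cells, fewer cells of a type and less RNA per cell cannot be told apart, and therefore each gene was followed within populations. Of 18 populations with at least 20 cells in every library, 13 gave enough UMIs for a test of 1 or more of the genes. Of the 49 tests, 2 passed the adjusted threshold, 1 in each direction: Eya1 was lower in the DTA+ periurethra-like cells and Irx5 was higher in the DTA+ cells of cluster 6 (Thbd, Ptgis, Ndufa4l2). Over all genes, 3.23% of the 148459 tests within the same populations passed. At an unadjusted p under 0.05 there were 7 of 49, against 13.9% over all genes.

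**Figure D1:**
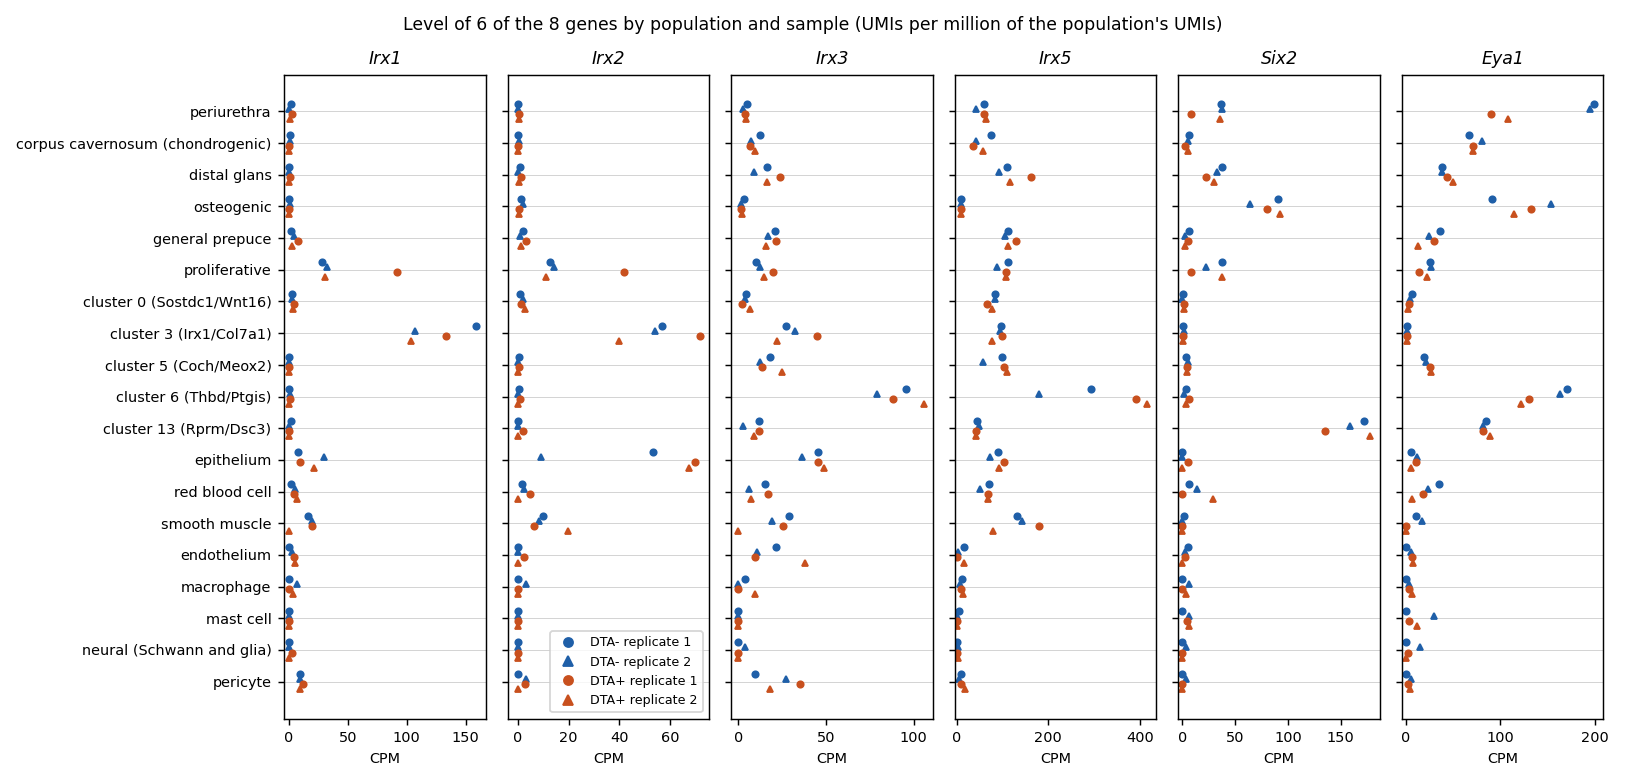
Level of 6 of the genes (CPM, horizontal axes) by population, with a point per library, colour for genotype and shape for replicate. Irx1 peaked in cluster 3, Irx3 and Irx5 in cluster 6 and Six2 in cluster 13. Of the units shown, Eya1 was highest in DTA- in the periurethra-like cells, followed by cluster 6. Osteogenic-like cluster 15, not shown alone, had more Eya1 than either. Irx2 peaked in cluster 3 other than in DTA+ replicate 2, where it was higher in epithelium-like cells. Irx6 and Dgkk, with 35 UMIs or fewer in the kept cells of any library, are left out.

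Among the Iroquois genes, Irx1 was concentrated in cluster 3, a group of 2238 cells led by Irx1, Col7a1 and Icam1, although Irx1 had been left out of the genes used to cluster. Its level there was 159, 107, 134 and 104 CPM, and 37.4 ± 8.06% of DTA- cells (SD, n = 2) and 35.1 ± 3.29% of DTA+ cells held at least 1 UMI. The high and low libraries of cluster 3 were spread over both genotypes (log2 fold change -0.15, SE 0.23, adjusted p = 1.00), and 0.695% of the genes tested in that cluster passed. Col7a1 encodes the anchoring fibril collagen that ties the skin basement membrane to the dermis. Cluster 3 contributed 67.4 and 65.4% of all Irx1 UMIs in DTA- and DTA+ libraries. Most of the remainder came from cluster 14 (Hist1h1b, Cenpf, Prc1), one of the clusters of dividing cells, at 85.1, 75.2, 131 and 73 CPM. Cluster 14 in DTA+ replicate 1 was above the other 3 libraries. In the 4 populations next in order, the DTA- means were 29.99 ± 2.83 CPM in proliferative cells, 19.1 ± 15.7 in epithelium-like cells, 17.6 ± 2.53 in smooth muscle-like cells and 9.39 ± 0.387 in pericyte-like cells. The libraries of the middle pair overlapped, so those levels did not differ beyond their spread. Irx1 was at or below 1.1 CPM on average in the DTA- cells of the periurethra-like, distal glans-like, osteogenic-like and corpus cavernosum-like populations and clusters 5, 6 and 13.

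Irx2 had the same leading cluster, other than in DTA+ replicate 2, where it was higher in epithelium-like cells. Its level in cluster 3 was 56.7, 53.9, 71.8 and 39.9 CPM (log2 fold change 0.06, SE 0.26, adjusted p = 1.00), with DTA+ replicate 2 lowest and DTA+ replicate 1 highest. Across the 27 clusters the DTA- levels of Irx1 and Irx2 had r = 0.95, and the DTA+ levels r = 0.89, on the log2(CPM + 5) scale. Those clusters come from the same libraries and share their depth, so this is a description. Within cluster 3, Irx1 was detected in 53.8, 40.3, 53.7 and 60.3% of the cells that held an Irx2 UMI. In cells of cluster 3 without one, the share was 40, 29.7, 31.7 and 26.8%. The cells with Irx2 were also the deeper ones, with medians of 5773.5, 4305, 5278.5 and 5392 UMIs against 5307, 4050, 4847.5 and 4902.5, and the part of depth in that gap was not tested.

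The gene pair separated in the epithelium other than in DTA- replicate 2, where Irx1 was the higher. Irx2 stood at 53.2, 9.06, 69.8 and 67.3 CPM in the 447 epithelium-like cells (Krt14, Krt15, Krt5), in which Irx1 was at 7.98, 30.2, 9.44 and 21.4 CPM. The UMIs were few. Before the filters the libraries held 621, 410, 1008 and 313 Irx2 UMIs, and the kept cells 177, 243, 445 and 132. Epithelium-like cells held 11.3, 1.23, 8.31 and 16.7% of those in kept cells. For Irx1 it was 0.759, 1.96, 0.625 and 2.51% of 395, 511, 800 and 279. DTA- replicate 2 was far below the other 3 libraries for Irx2, which were alike across genotypes (log2 fold change 1.09, SE 0.55, adjusted p = 0.972). Without DTA- replicate 1 the log2 fold change was 2.90, against that low library as the only control. In proliferative cells, DTA+ replicate 1 alone was high for both genes. Irx1 measured 28, 32, 91.6 and 30.9 CPM there (log2 fold change 1.03, SE 0.36, adjusted p = 0.406), and Irx2 12.8, 14.1, 42 and 11 CPM (log2 fold change 0.98, SE 0.44, adjusted p = 0.542). With no filter on low counts both passed (adjusted p = 0.000271 and 0.0304), and Irx1 also did with the crossed pairing of libraries (adjusted p = 0.00481). The proliferative population was also made up differently in that library: cluster 14 supplied 28.3, 40.9, 65 and 40.1% of its cells. Over all cells, DTA+ replicate 1 was highest and DTA+ replicate 2 lowest for both genes, with 13.3, 15.9, 26.4 and 8.0 CPM for Irx1 and 5.94, 7.56, 14.7 and 3.78 CPM for Irx2. The share of cells in cluster 3 had the same order over the 4 libraries, at 5.4, 9.06, 10.7 and 3.75% of each library. The part of cell numbers in the whole-sample levels was not tested.

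**Figure D2:**
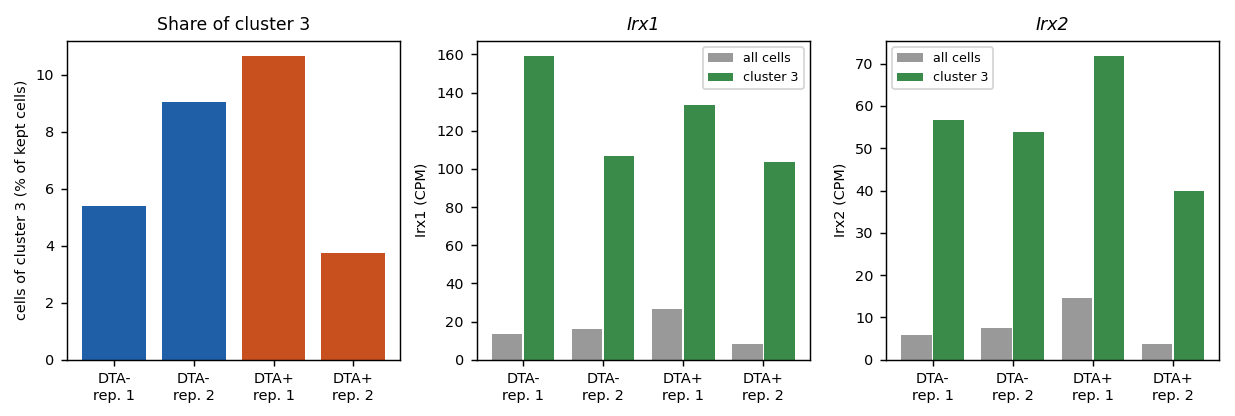
Share of each library's kept cells in cluster 3 (percent, left), and levels of Irx1 and Irx2 (CPM) over all cells (grey bars) and in cluster 3 (green bars) of each library. Over all cells DTA+ replicate 1 is the highest and DTA+ replicate 2 the lowest, while within cluster 3 the genotypes overlap.

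Irx3 and Irx5, members of the other genomic group, both peaked in cluster 6. Cluster 6 held 1822 cells that passed for none of the named populations in the main clustering. They were led by Thbd, which encodes thrombomodulin, and Ptgis, which encodes prostacyclin synthase. Irx5 measured 294, 179.5, 392 and 416 CPM in cluster 6. Both DTA+ libraries were above both DTA- libraries, and DTA- replicate 2 was the lowest. The means were 237 ± 81 CPM in DTA- and 404 ± 16.4 CPM in DTA+ (SD, n = 2), so Irx5 rose 1.7-fold (log2 fold change 0.76, SE 0.19, adjusted p = 0.0162). In cluster 6, 11.5% of the 9997 genes tested passed the same threshold, the largest share among the populations in which Irx5 was tested. A UMI of Irx5 was found in 57.5 ± 15.3% of DTA- and 63.9 ± 4.27% of DTA+ cells. Cluster 6 was sequenced more deeply in the controls, with medians of 4967, 4140, 2740.5 and 3255.5 UMIs per cell. At 1000 UMIs in every cell the shares were 19.6 ± 4.78% and 31.3 ± 0.444%. The rise was not called without DTA- replicate 2, where the log2 fold change was 0.46 (adjusted p = 0.0597), and without DTA- replicate 1 it was 1.17. It was also not called with coarser clusters (adjusted p = 0.105) or with cells of high UMI count kept (adjusted p = 0.174).

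Beside the rise of Irx5 in cluster 6, the summed level of 7 smooth muscle markers was 109, 133, 31.1 and 27.7 CPM, 3 of them lower in both DTA+ libraries and 1 higher. The 7 pericyte markers summed to 1074, 928, 981 and 1037 CPM, but they include Ndufa4l2, a leading gene of cluster 6 itself. The 10 epithelial markers summed to 15.8, 14.1, 29.5 and 13.2 CPM. The 8 glial markers summed to 17.03, 17.5, 24.1 and 20.8 CPM, higher in both DTA+ libraries. Of these markers, Sox10 and Foxd3 were at 0 in every library of that cluster. The part of those cells in the Irx5 values was not tested.

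Irx5 was widely expressed outside cluster 6. In DTA- libraries it averaged 138 ± 7.56 CPM in smooth muscle-like cells, 109 ± 4.19 in general prepuce-like cells, 101 ± 13.3 in distal glans-like cells, 100.2 ± 17.3 in proliferative cells and 96.7 ± 1.12 in cluster 3. In that order, the libraries of neighbouring populations overlapped, other than those of smooth muscle and general prepuce. Lower levels were found in corpus cavernosum-like cells (76, 43.1, 36.1 and 58.3 CPM) and periurethra-like cells (60.5, 42.9, 59.2 and 63.4 CPM). Osteogenic-like cells had almost none, at 10.1, 9.29, 10.1 and 9.99 CPM, close to the level in macrophages. Macrophages, endothelium, mast cells and glia give an idea of stray RNA: a UMI of Irx5 was found in 2.78 ± 0.164% of DTA- macrophage-like cells at median depths of 4719 and 4443 UMIs. The distal glans-like cells showed a difference in the same direction as cluster 6, with 111, 91.9, 164 and 117 CPM and no overlap, but it did not pass (log2 fold change 0.45, SE 0.17, adjusted p = 0.1603). No call was made in the corpus cavernosum-like cells either (log2 fold change -0.33, SE 0.26, adjusted p = 0.477).

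The genotype effect on Irx5 in cluster 6 was then set against that in 6 other populations, in models fitted over all genes of each pair. These pairs, with 7 for Eya1, were picked after the values were seen. The effect in cluster 6 exceeded that in corpus cavernosum-like cells by 1.09 (SE 0.18, adjusted p = 0.000289) on the log2 scale. It was larger than in general prepuce-like cells by 0.69 (SE 0.18, adjusted p = 0.0484), than in cluster 3 by 0.91 (SE 0.21, adjusted p = 0.0107) and than in cluster 0 (Sostdc1, Wnt16, Gria2) by 1.03 (SE 0.19, adjusted p = 0.00324). The difference was 0.53 (SE 0.16, adjusted p = 0.0633) against periurethra-like cells and 0.33 (SE 0.17, adjusted p = 0.432) against distal glans-like cells, neither of which passed. Of all genes, 2.56%, 2.4%, 5.18%, 3.77%, 4.51% and 3.11% passed in these comparisons, in the same order. Since the general prepuce-like cells came from different clusters in the genotypes, that comparison also holds a change of makeup, whose part was not tested.

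Irx3 was 95.6, 79.1, 88.1 and 106 CPM in cluster 6, and its 4 libraries overlapped between the genotypes (log2 fold change 0.15, SE 0.18, adjusted p = 0.656). In cluster 6, Irx5 was detected in 73.5, 59.6, 75.3 and 81.7% of cells with an Irx3 UMI and in 65.5, 42.1, 57.3 and 61.3% of cells without one, at median depths of 5027.5, 4324, 2964 and 3497 and 4878, 4087, 2678 and 3164.5 UMIs. The next highest level of Irx3 was in epithelium-like cells at 45.2, 36.2, 45.3 and 48.9 CPM (log2 fold change 0.20, SE 0.38, adjusted p = 0.997), followed by cluster 3 at 27, 32.2, 45 and 22 CPM. Endothelium-like cells held 21.5, 10.49, 9.3 and 38.2 CPM, too few UMIs for a test. In periurethra-like and osteogenic-like cells Irx3 averaged 3.76 ± 1.49 and 2.39 ± 1.36 CPM in DTA-. Over the 27 clusters the DTA- levels of Irx3 and Irx5 had r = 0.68. The antisense gene Irx3os overlaps Irx3 and is counted on a row of its own.

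Irx6 was rare. Over all kept cells it gave 34, 35, 25 and 32 UMIs, or 1.14, 1.09, 0.824 and 0.917 CPM (log2 fold change -0.35, SE 0.31, adjusted p = 0.627), and the groups did not overlap. Before the filters, the libraries held 135, 62, 92 and 43 UMIs of Irx6, so most or many of them lay in cells left out. Its highest level was in epithelium-like cells, at 21.3, 24.1, 13.2 and 12.2 CPM from 8, 8, 7 and 4 UMIs. That was too little for a test within the population. The DTA- libraries were above the DTA+ libraries there, by a margin of a few UMIs. No UMI was found in the 1624 cells of osteogenic-like cluster 7 (Cpm, Hs3st3b1), which allows a share of up to 0.185% of cells with a UMI. This limit, like those below, covers counting error only.

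Of the named populations, Eya1 was highest in DTA- in the 2582 periurethra-like cells, the mesenchyme around the urethra, and lower there in DTA+. Its level was 199, 195, 90.9 and 109 CPM, and the genotypes did not overlap. The means were 197 ± 3.33 CPM in DTA- and 99.9 ± 12.8 CPM in DTA+ (SD, n = 2). Eya1 therefore fell by 0.97 on the log2 scale (SE 0.15, adjusted p = 0.00859), in a population in which 3.13% of 11085 genes passed. A UMI was detected in 48.8 ± 5.06% of DTA- and 26.4 ± 3.8% of DTA+ cells. With every cell thinned to 1000 UMIs the shares were 17.1 ± 0.125% and 9.96 ± 0.768%. In macrophage-like cells, which serve as a measure of stray RNA, the unthinned shares were 0.667 ± 0.943% and 1.35 ± 0.0776%. The fall passed in each of the 16 alternative settings tried, with log2 fold changes from -1.12 to -0.85.

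Beside this fall, median depths in the periurethra-like cells were 4920, 3899, 3502 and 3665.5 UMIs and the median mitochondrial shares were 5.46, 5.73, 5.99 and 5.44%. Of the 7 markers that name the population, the forkhead gene Foxl2 was higher in both DTA+ libraries, at 4.69, 7.51, 67.8 and 22.4 CPM. The hedgehog targets Ptch1 (219, 275, 138 and 285 CPM) and Hhip (87.5, 97.6, 50.04 and 90.9 CPM) were lowest in DTA+ replicate 1 and overlapped between the groups. Gli1, another of those markers, was lower in both DTA+ libraries, at 25.80, 30.47, 13.55 and 25.74 CPM, in DTA+ replicate 2 only just. Foxf1, Foxf2 and Sall3 overlapped between the groups. Markers of other cell types varied in level. The 10 epithelial markers summed to 22.1, 18.1, 26.6 and 19.1 CPM with Foxa1 and Foxa2 at 0. The 8 macrophage markers summed to 12.4, 16.8, 9.38 and 6.97 CPM with Adgre1 at 0, and 8 endothelial markers to 15.7, 10.2, 26.6 and 30.9 CPM. Higher sums were found for 7 red blood cell markers (3974, 2621, 2910 and 626 CPM) and 7 pericyte markers (324, 283, 217 and 286 CPM). The 7 smooth muscle markers summed to 139, 197, 249 and 121 CPM. The part of any of these in the Eya1 values was not tested. The population joined 2 clusters, and cluster 8 (Sall3, Mmp11, Fhod3) made up 44.7, 47.7, 62.3 and 51% of it.

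The genotype effect on Eya1 differed between the 2 periurethra-like clusters. In cluster 8 the level was 190.0, 211, 52.2 and 89.4 CPM, so that the DTA+ libraries lay well under the controls (log2 fold change -1.48, SE 0.24, adjusted p = 0.01201). Of the genes tested in cluster 8, 2.77% passed. In cluster 9 (Mup17, Epha3, Pnoc) Eya1 was at 207, 182, 168 and 132 CPM, again lower in both DTA+ libraries, but the difference did not pass (log2 fold change -0.40, SE 0.19, adjusted p = 0.329), whereas 3.65% of genes did. The effect in cluster 8 minus that in cluster 9 was -1.05 (SE 0.24, adjusted p = 0.0109) on the log2 scale, a comparison in which 1.76% of genes passed. In cluster 8 the 10 epithelial markers summed to 20.2, 14.5, 25.5 and 16.1 CPM and the 7 smooth muscle markers to 255, 329.6, 316 and 179 CPM.

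Osteogenic-like cells showed the opposite in 1 of their 2 clusters. Cluster 7 had 50.8, 61.5, 100.1 and 90.3 CPM of Eya1, higher in both DTA+ libraries, and the rise passed when the cluster was tested alone (log2 fold change 0.78, SE 0.20, adjusted p = 0.0347), against 3.21% of the genes tested there. Cluster 15 (Hand2os1, Prss35), the other osteogenic-like cluster, had 224, 265, 189 and 168 CPM (log2 fold change -0.46, adjusted p = 0.362). In the osteogenic-like population as a whole, Eya1 was 91.5, 154, 133 and 115 CPM with the genotypes overlapping (log2 fold change 0.03, SE 0.21, adjusted p = 0.972). The effect in cluster 8 minus that in cluster 7 was -2.26 (SE 0.27, adjusted p = 6.18e-07), with 3.04% of all genes passing. The choice to test single clusters was made after the values of the populations had been seen.

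**Figure D3:**
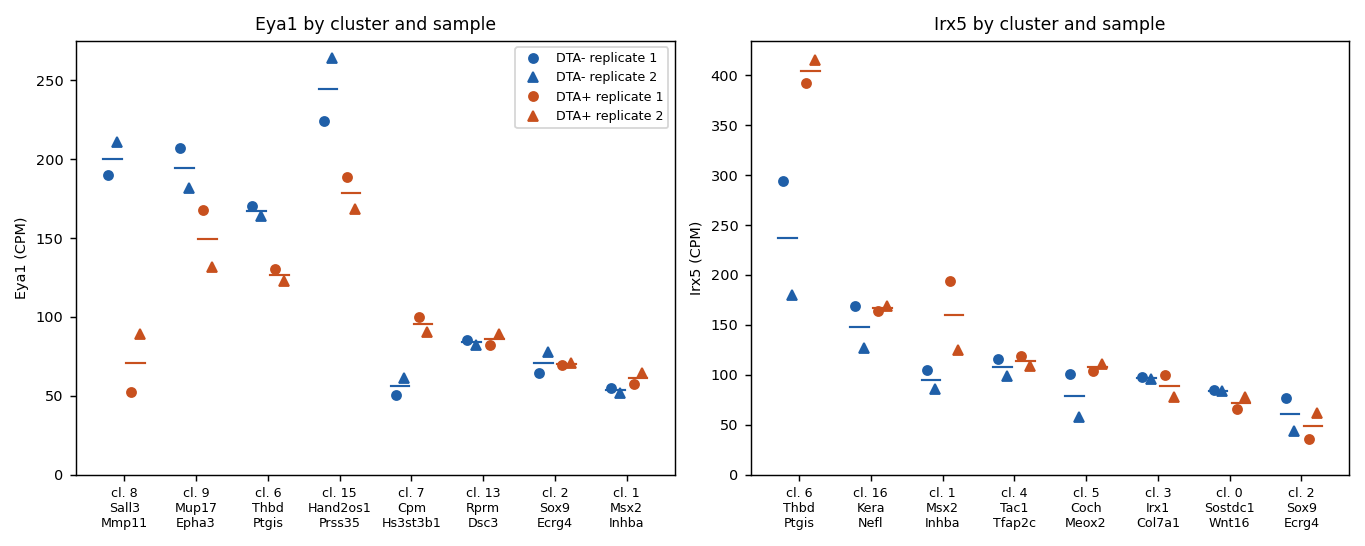
Level of Eya1 and Irx5 (CPM, vertical axes) in single clusters named by their leading genes, with a point per library, colour for genotype, shape for replicate and a line at each group's mean. Eya1 is lower in both DTA+ libraries in cluster 8 and higher in both in cluster 7, and Irx5 is higher in both DTA+ libraries in cluster 6.

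The level of Eya1 elsewhere fell into steps, taken over whole named populations and unnamed clusters. Cluster 6 came next to the periurethra-like cells in the controls. It stood at 171, 164, 130.3 and 123 CPM, with both DTA+ libraries below both controls (log2 fold change -0.41, SE 0.16, adjusted p = 0.111). Cluster 15, a part of the osteogenic-like cells, was above both of these in every library. Cluster 13 (Rprm, Dsc3, Ephb1) stood at 85.4, 82.3, 82.1 and 89.4 CPM and corpus cavernosum-like cells at 67, 80.4, 70.9 and 70.9 CPM, both overlapping between genotypes (log2 fold change 0.04, adjusted p = 0.975 and log2 fold change -0.06, adjusted p = 0.886). Their DTA- means of 83.9 ± 2.17 and 73.7 ± 9.43 CPM came from libraries that did not overlap. Distal glans-like cells held 38.6, 39, 43.9 and 49.97 CPM (log2 fold change 0.29, adjusted p = 0.375), and general prepuce-like cells 36.8, 25, 30.1 and 13.6 CPM (log2 fold change -0.54, adjusted p = 0.549). Eya1 averaged 1.57 ± 0.659 CPM in DTA- cells of cluster 3, where Irx1 and Irx2 were highest, and 1.63 ± 2.31 CPM in macrophage-like cells.

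Against other named mesenchymal populations, the effect in periurethra-like cells was the more negative. Its difference from the effect in corpus cavernosum-like cells was -0.92 (SE 0.17, adjusted p = 0.00207), and from that in distal glans-like cells -1.27 (SE 0.15, adjusted p = 0.001399). Of all genes, 3.5% and 1.71% passed in those comparisons. The difference was -1.02 (SE 0.24, adjusted p = 0.0692) from osteogenic-like cells and -0.37 (SE 0.38, adjusted p = 0.787) from general prepuce-like cells, and neither passed, whereas 1.2% and 1.54% of all genes did. The effect in cluster 8 minus that in cluster 6 was -1.09 (SE 0.23, adjusted p = 0.0111), against 4.03% of all genes. In 1 model over the 5 named mesenchymal populations, 0 of 5 members tested had an effect that varied between populations, with Eya1 nearest at an adjusted p of 0.0597. In that model 6.2% of 12610 genes passed. At an unadjusted p under 0.05 it held for 1 of the 5, Eya1, but the share of all genes at that threshold is not given here. With the unnamed clusters of at least 20 cells in every library added, Eya1 (adjusted p = 0.0114) and Irx5 (adjusted p = 0.0373) passed, against 12% of 12890 genes.

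**Figure D4:**
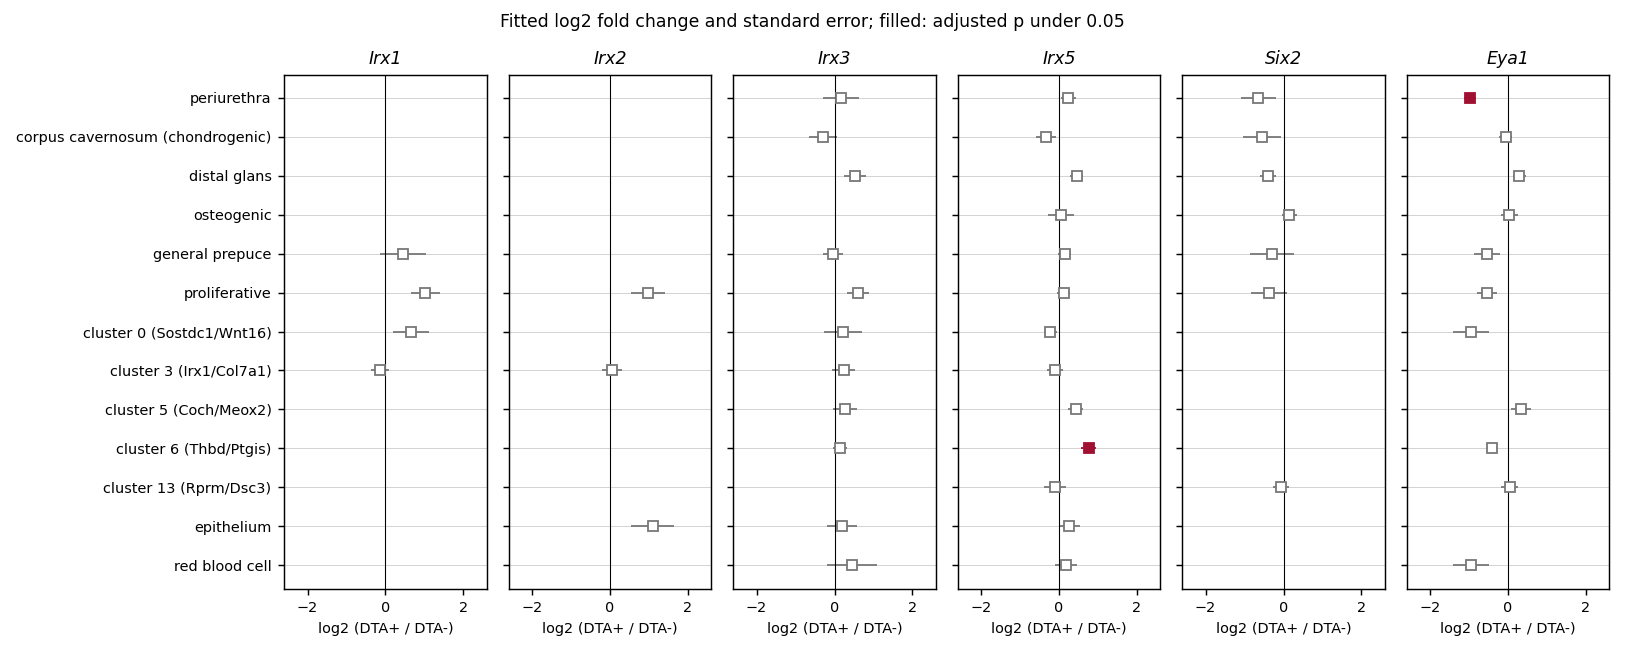
Log2 fold change (DTA+ over DTA-) of each gene in each population where it was tested, with bars of 1 SE on either side. Filled points mark adjusted p under 0.05, which are Eya1 in the periurethra-like cells at -0.97 and Irx5 in cluster 6 at 0.76.

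Six2 led in cluster 13, at 172, 159, 135 and 178 CPM, with a UMI in 40.3 ± 4.63% of DTA- cells, and the genotypes overlapped (log2 fold change -0.06, SE 0.21, adjusted p = 0.96). Osteogenic-like cells followed at 91, 64.3, 80.01 and 92.8 CPM (log2 fold change 0.15, adjusted p = 0.791), with cluster 7 at 107, 83.4, 128 and 117 CPM. The DTA- levels in periurethra-like cells (36.8 ± 0.985 CPM), distal glans-like cells (35.1 ± 3.81 CPM) and proliferative cells (29.7 ± 10.4 CPM) did not differ beyond their spread. In several populations DTA+ replicate 1 was the one low library. Periurethra-like cells had 36.1, 37.5, 7.66 and 35.9 CPM of Six2 (log2 fold change -0.64, SE 0.46, adjusted p = 0.5596), and within them cluster 8 had 77.5, 75.6, 9.63 and 66.7 CPM. The same library was lowest in cluster 15 at 38.7, 45.1, 12.8 and 48.7 CPM and in proliferative cells at 37.1, 22.4, 8.11 and 37.4 CPM. Over all cells the level was 25.6, 14.3, 11.6 and 28.9 CPM (log2 fold change 0.03, SE 0.44, adjusted p = 0.983), where DTA+ replicate 2 was the highest and DTA+ replicate 1 the lowest. Without DTA+ replicate 2, Six2 in the periurethra-like cells had a log2 fold change of -2.26 that passed the threshold, and with a replicate block over all 4 libraries it passed at -0.88 (adjusted p = 0.0164). In cluster 3 and cluster 0, Six2 averaged 0.953 ± 0.569 and 0.173 ± 0.245 CPM in DTA-. The levels of Six2 and its partner Eya1 had r = 0.58 over the 27 clusters in DTA-.

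Dgkk was close to the limit of detection. Its UMIs over all kept cells numbered 13, 21, 15 and 19, or 0.436, 0.654, 0.494 and 0.545 CPM (log2 fold change -0.07, SE 0.41, adjusted p = 0.952), and the groups overlapped. Of these UMIs, 4, 6, 5 and 2 lay in distal glans-like cluster 1 (Msx2, Inhba, Htr3b). None lay in the 2238 cells of cluster 3, which allows a share of up to 0.134%, or in the 447 epithelium-like cells, which allows up to 0.671%. A genotype difference within a population was not detectable for Dgkk at this depth.

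For each gene, the genes with the most similar DTA- level across the 27 clusters were sought among 10979 genes, as a description on the log2(CPM + 5) scale. Nearest to Irx1 were Col7a1 (r = 0.78), Lmcd1 (r = 0.77) and Lrig1 (r = 0.76), and nearest to Irx2 Col7a1 (r = 0.82), Bcl11b (r = 0.78) and Emx2os (r = 0.77). Those for Irx3 were Disp1 (r = 0.65), Peg10 (r = 0.64) and Pdzd2 (r = 0.63), and for Irx5 Rgs17 (r = 0.83), Ly6h (r = 0.82) and Cdo1 (r = 0.82). Irx6, also with few UMIs, was followed by Rab25 (r = 0.94), Sfn (r = 0.94) and Sprr1b (r = 0.93), which are epithelial genes. Eya1 was followed by Hoxd13 (r = 0.88), Hoxa13 (r = 0.87) and Alpl (r = 0.86), of which the Hox genes encode factors that pattern the distal limb and genital tubercle. Six2 was followed by Abcg5 (r = 0.85), Bambi (r = 0.83) and Gm43376 (r = 0.82). Dgkk, with few UMIs, was followed by Prkg2 (r = 0.74), Abat (r = 0.71) and Wnt5b (r = 0.69). In DTA+ these Dgkk values were lower, at r = 0.12, 0.41 and 0.30. Clusters of the same libraries share depth and stray RNA, so no test was made.

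Relatives of the members were tested in the same 18 populations. Of 47 tests over the relatives of Irx, Six2 and Eya1 (Irx4, Six3 to Six6, Eya2 to Eya4, Dach1 and Dach2, 10 genes), 3 were higher and 1 lower in DTA+. Over all genes, 3.23% of the tests in those populations passed. Dach1, which encodes a co-repressor in the same network, rose by 1.17 (adjusted p = 0.02602) on the log2 scale in periurethra-like cells and by 0.70 (adjusted p = 0.0403) in distal glans-like cells, and Eya4 fell in distal glans-like cells, at -1.08 (adjusted p = 0.0448). In periurethra-like cells the median log2 fold change of the 5 family members tested was 0.39, beside -0.002798 for all genes. Among the other diacylglycerol kinases (9 genes), 4 of 73 tests were higher and none lower. Dgkh rose by 1.41 (adjusted p = 0.0129) in corpus cavernosum-like cells and by 1.02 (adjusted p = 0.0156) in distal glans-like cells.

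Other genes linked to hypospadias or urethral closure (24 genes) gave 24 higher and 11 lower results in 249 tests. The share over all genes was the same 3.23%. Among the named populations, Esr1, the oestrogen receptor, had the largest rises: 3.51 (adjusted p = 0.000351) in periurethra-like cells, 2.66 (adjusted p = 0.00376) in general prepuce-like cells and 2.39 (adjusted p = 0.000205) in corpus cavernosum-like cells. Srd5a2, which encodes the enzyme that makes dihydrotestosterone, had the largest falls there: -4.47 (adjusted p = 0.00272) in general prepuce-like cells, -3.71 (adjusted p = 0.00411) in osteogenic-like cells and -2.24 (adjusted p = 0.00161) in periurethra-like cells. The general prepuce-like cells came from different clusters in the genotypes, and the part of that makeup in their values was not tested. In periurethra-like cells, where Eya1 fell, 3 of the 19 genes of this list that were tested rose and 1 fell, with a median log2 fold change of 0.25. In cluster 6, where Irx5 rose, the counts were 4 and 2 of 18, with a median of 0.30, where 11.5% of all genes passed.

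Genes that lie beside the members on the chromosome (14 genes) were higher in 4 and lower in 10 of 114 tests, beside 3.23% of tests that passed in either direction over all genes. In the Irx3 to Irx6 region of chromosome 8, Mmp2 was higher in corpus cavernosum-like cells, by 0.58 (adjusted p = 0.0294), and in cluster 6, by 0.63 (adjusted p = 0.0138), but lower in cluster 0, at -0.96 (adjusted p = 0.0199). Lpcat2 was lower in distal glans-like cells, at -1.66 (adjusted p = 0.0345). In the Irx1 to Irx4 region of chromosome 13, Ndufs6 fell in corpus cavernosum-like cells, at -0.59 (adjusted p = 0.0277), and Mrpl36 fell in periurethra-like cells, at -0.74 (adjusted p = 0.0497). In cluster 6, where Irx5 rose, 2 neighbours were higher and 2 lower of 8 tested, and 11.5% of all genes passed there.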

How the data were processed

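Cells of dissociated E16.5 male genitalia were captured with a 10x Genomics 3' kit, 2 libraries per genotype. The authors aligned the reads with Cell Ranger to mm10 with tdTomato added and deposited UMI counts per gene and cell, not normalized. The version is 4.0.0 in the submitters' processing notes, which differs from that in the methods of the study.

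Cells with 1000 to 7500 UMIs were kept where mitochondrial genes gave under 25%, Hba genes under 25% and Hbb genes under 50% of the UMIs. Clusters were made in Seurat 5.3.0 (2000 variable genes, 30 principal components, resolution 0.8) with the 8 members left out. A population name needed 3 or more of that population's markers, each detected in 5% of the cluster's cells and with a log2 excess of 0.8, and no conflict with the leading genes. Scrublet (scanpy 1.11.5) called 0 or 1 doublets a library on its automatic threshold, which did not work, and so no doublets were removed in the main results.

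Counts were summed per library and population. Where every library had at least 20 cells, edgeR 4.0.16 (filterByExpr, TMM, quasi-likelihood test) compared DTA+ with DTA- in R 4.3.3, with Benjamini-Hochberg adjustment over the genes tested in that population and a threshold of 0.05. CPM is on TMM-scaled library sizes where a test was made and on plain sums elsewhere. Differences between populations were tested as interaction terms. On simulated counts with a log2 change of 1 in 200 genes, the test found 56% of them over all cells (15977 genes), 36% in the periurethra (11085 genes), 50% in cluster 6 (9997 genes) and 9.5% in the epithelium (4906 genes). For shares of cells, every cell was also thinned to 1000 UMIs, and no cell was shallower. Intervals and floors (3 counts) cover counting error only.

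The members and the lists of related genes were chosen with earlier results of these data known. All members are named. Some genes are not reported here. Of a list, genes with adjusted p under 0.05 in a named population are named, at most 3 rises and 3 falls by size. Likeness used log2(CPM + 5) over clusters of at least 50 cells and genes of at least 5 CPM. The limit of 50 counted the cells of all 4 libraries together. Some levels therefore rested on few cells: in DTA-, cluster 17 had 1 and 5 cells and cluster 12 had 87 and 9. In DTA+, cluster 10 had 44 and 17 and the smooth muscle-like cluster 33 and 11. Alternatives were DESeq2 1.42.0, a likelihood ratio test, RLE scaling, no filter on low counts, a replicate block, each library left out, other resolutions, members kept in the clustering, no upper UMI limit, the highest doublet scores left out and thinning. The crossed pairing, single clusters, the unnamed clusters in the model over populations and the pairs of populations were added after the data were seen.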

Additional observations from a re-analysis of the deposited data

Results flagged for a closer look

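The genotype effect on 2 genes differed between populations in models that test the difference itself (edgeR's quasi-likelihood test). For Eya1, the log2 fold change in periurethra-like cells minus that in corpus cavernosum-like cells was -0.92, and minus that in distal glans-like cells -1.27. Between clusters, the effect in cluster 8 minus that in cluster 9 was -1.05, minus that in cluster 7 -2.26 and minus that in cluster 6 -1.09. For Irx5, the effect in cluster 6 minus that in another population was 1.09 for corpus cavernosum-like cells, 0.69 for general prepuce-like cells, 0.91 for cluster 3 and 1.03 for cluster 0. These 9 were among 13 pairs picked after the values were seen. No explanation was weighed for them. Groups of 2 libraries are too small to look for an outlying library.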

How the results depend on the processing

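The fall of Eya1 in periurethra-like cells kept its direction and its call in all 16 alternatives. Irx5 in cluster 6 kept its direction in all 16 and its call in 13, and it was not called without DTA- replicate 2 (0.46, adjusted p = 0.0597), at resolution 0.4 (0.58, adjusted p = 0.105) and without an upper UMI limit (0.46, adjusted p = 0.174). At both of the latter, cluster 6 was matched to a cluster that shared part of its cells (Jaccard index 0.651 and 0.584). Both of those matched clusters were named general prepuce-like. In the main setting 2 of 49 tests within populations were called, against 3.23% over all genes. That share is not given for the alternatives. The count of calls became 4 in 128 tests with no filter on low counts, 1 in 46 at resolution 0.4 and 5 in 67 with no upper UMI limit. With 1 library left out it ranged from 3 to 7: it was 7 without DTA- replicate 1, 4 without DTA- replicate 2, 3 without DTA+ replicate 1 and 7 without DTA+ replicate 2. In those fits the lone library of a group is assumed to vary like the other group. With no filter on low counts, the calls added were Irx1 (1.01, adjusted p = 0.000271) and Irx2 (0.96, adjusted p = 0.0304) in proliferative cells. With 1 library left out, the calls added were these. Irx1 in proliferative cells had 0.94 without DTA- replicate 1, 1.13 without DTA- replicate 2 and 1.60 without DTA+ replicate 2, as log2 fold changes. Irx2 in the same cells had 1.06 without DTA- replicate 2 and 1.63 without DTA+ replicate 2. Irx5 in distal glans-like cells had 0.59 without DTA- replicate 1 and 0.69 without DTA+ replicate 2. Without DTA- replicate 1, Irx2 in epithelium-like cells (2.90), Irx3 in distal glans-like cells (1.11) and Irx5 in cluster 5 (0.89) were called. Without DTA- replicate 2 it was Irx5 in corpus cavernosum-like cells (-0.69), without DTA+ replicate 1 Eya1 in general prepuce-like cells (-1.16), and without DTA+ replicate 2 Six2 in periurethra-like (-2.26) and proliferative cells (-1.84). The cause was not tested. Over all cells, no member tested was called in any of 13 alternatives, with all 8 tested in each other than thinning to 1000 UMIs, which left 6. Among related genes, 57 of 483 tests were called in the main setting, against the same 3.23% over all genes. The alternatives gave between 38 calls (DESeq2, 483 tests) and 79 (crossed pairing, 483 tests), and the share over all genes is not given for them.

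Whether library numbers pair the samples could not be decided. In sums over all kept cells, deviations of DTA- replicate 1 and DTA+ replicate 1 from their group means had r = -0.23 over 15977 genes. Those sums also hold the cell makeup of each library, so this r cannot show whether libraries of the same number shared a batch. The replicate block gave 3 calls in 49 tests within populations, adding Six2 in periurethra-like cells at -0.88 on the log2 scale. The crossed pairing, chosen after seeing the data, gave 5 in 49, adding Irx1 in proliferative cells (1.00) and Irx5 in distal glans-like cells (0.43) and cluster 5 (0.47).

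Over all genes, 6.2% had an effect that varied across the 5 named mesenchymal populations, and 12% with the unnamed clusters added. The count among the members was 0 of 5 tested. It was 2 with the unnamed clusters added, and it was not stable when 1 library was left out. The adjusted p of Eya1 went from 0.0597 to 0.0122 without DTA+ replicate 1, 0.0167 without DTA+ replicate 2 and 0.0114 with those clusters, and was 0.365 without DTA- replicate 1.

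Shares of cells depended on depth. Thinning every cell to 1000 UMIs took the share of DTA- cells with a UMI from 37.4 to 11.1% for Irx1 and from 20.7 to 4.78% for Irx2 in cluster 3. It went from 29.98 to 6.48% for Irx3 and from 57.5 to 19.6% for Irx5 in cluster 6. It went from 40.3 to 15.6% for Six2 in cluster 13 and from 48.8 to 17.1% for Eya1 in periurethra-like cells. The DTA- levels in CPM of these genes in the same populations moved by less than the spread when the members were kept in the clustering. Which cluster then led for each gene was not looked at. The filter on low counts left Irx6 and Dgkk untested within populations in the results as reported, and neither was called where an alternative tested it.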

Other observations

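The filtered cells gave no subdermal prepuce-like population in the main clustering, but gave one of 2163 cells with coarser clusters. The only call among the members with those coarser clusters was Eya1 in periurethra-like cells. With the upper UMI limit lifted, a subdermal prepuce-like population could also be named, with 488, 1063, 196 and 102 cells. In it Eya1 was close to absent from the DTA+ libraries: the counts were 122, 113, 1 and 1 UMIs, or 38.2, 19.5, 0.807 and 1.42 CPM (adjusted p = 0.000623). Irx1 was higher in both DTA+ libraries, at 9.08, 9.82, 44.4 and 39.8 CPM (log2 fold change 2.20, adjusted p = 0.000211). Irx2 was also higher, at 6.57, 3.27, 19.4 and 14.2 CPM (log2 fold change 1.95, adjusted p = 0.0136), and so was Irx3, at 17.2, 19.8, 58.9 and 32.7 CPM (log2 fold change 1.41, adjusted p = 0.00784). Irx5, the other member tested, did not pass (log2 fold change 0.62, adjusted p = 0.0587). The share of all genes that passed in this population is not given here. The DTA+ cells were few and came in other proportions from the clusters. Cluster 10 of the filtered cells supplied 241, 772, 33 and 14 of them and cluster 12 5, 3, 32 and 21. Cluster 3, where Irx1 and, in DTA-, Irx2 were highest, supplied 31, 43, 68 and 17. The part of that makeup in the values was not tested. Among the filtered cells, cluster 10 alone held 279, 858, 44 and 17 cells and had Irx1 at 3.43, 4.88, 65.9 and 56 CPM and Eya1 at 30.2, 17.1, 4.71 and 0 CPM, with too few cells in a DTA+ library for a test.

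Cluster 17 (Iyd, C130073E24Rik, Akap12) consisted almost wholly of DTA+ cells, with 1, 5, 510 and 272 cells. In its DTA+ libraries Irx5 stood at 54.3 and 43.1 CPM and Eya1 at 3.45 and 5.18 CPM, with no control level to set them against.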
